A study of Mus musculus with 5 samples.

Results

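The genes described here are 34 genes of fatty acid and cholesterol synthesis, read in single cells of mouse mammary tumors. They were chosen by symbol from the 31053 genes counted in every library, and all 34 symbols were present. They form a fatty acid arm of 13 genes, a sterol arm of 17 genes that includes a sterol carrier, and a group of 4 regulators of the SREBP system. The rule that lists them uses symbols and no measured value.

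Fatty acid synthesis starts from cytosolic acetyl-CoA, which is carboxylated to malonyl-CoA and built into palmitate, and elongases and desaturases then lengthen and unsaturate the chain. Cholesterol synthesis runs from the same acetyl-CoA through mevalonate, isoprenoid diphosphates and squalene to lanosterol, which is trimmed to cholesterol. Both routes are under the SREBP transcription factors, which are escorted from the endoplasmic reticulum by SCAP when sterols are low and held back by INSIG proteins when sterols are high. In the mammary gland these genes supply the fatty acids of milk fat, and secretory epithelium is among the tissues with the highest capacity for fatty acid synthesis.

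The tumors came from MMTV-PyMT mice, strain FVB/N-Tg(MMTV-PyVT)634Mul/J, in which the MMTV promoter drives the polyoma middle T oncogene mainly in mammary epithelium, so that all animals of both groups carried the transgene. Mice were given either an isotype control antibody, mouse IgG2a clone C1.18.4, or the anti-VEGFA antibody clone B20-4.1.1, each at 5 mg/kg by repeated intraperitoneal injection for 6 weeks from 7 weeks of age. Dissociated tumors were sorted for DAPI-negative cells, tagged with oligonucleotides and run in pools of 3 tumors, giving 2 isotype pools with 6 tumors and 3 B20-4.1.1 pools with 9 tumors. The question put to these genes was whether their RNA in each cell class differed between the isotype tumors and the B20-4.1.1 tumors. Because every pool held tumors of 1 treatment, effects of the pool and of the treatment cannot be told apart by a fixed term, and the replicates are tumors, so p-values measure the spread between tumors.

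Of 30340 deposited cells, 19533 had at least 2500 unique molecular identifiers (UMIs, counts of distinct RNA molecules), no more than the study's upper limit, and at most 20% mitochondrial UMIs. Total UMIs per tumor were between 4014509 and 23726246. Cells were put in classes by marker genes that include none of the 34 genes, which gave 13647 epithelial-like, 1447 macrophage-like and 2661 T-like cells, and 98.2% of the epithelial-like cells also lay in clusters named epithelial. No other named class held more than 179 cells. Epithelial-like cells numbered 938 to 1945 per isotype tumor and 77 to 1016 per B20-4.1.1 tumor. T-like cells made up 3.15% to 11.5% of kept cells in isotype tumors. They made up 57.7% in tumor 3 of B20-4.1.1 pool 1, and 66.3% and 65.3% in tumors 1 and 3 of B20-4.1.1 pool 2. In the other B20-4.1.1 tumors they made up 3.19% to 21.7%. Isotype pool 1 stood apart from the other pools. Its tumors had a median of 2192 to 2423 UMIs per deposited cell, against 6034 to 6582 in isotype pool 2 and 2819 to 9834.5 in the B20-4.1.1 pools. Their kept cells had a median of 5.42% to 5.59% mitochondrial UMIs, against 2.07% to 3.30% in the 12 other tumors. They had 84.3% to 92.1% of multiplexing UMIs on their own tags, against 95.2% to 97.6% in isotype pool 2 and 87.8% to 96.0% in the B20-4.1.1 pools. Between pools, at most 24 cell barcodes were shared. In epithelial-like cells the 8 epithelial markers summed to 59.8 to 79.9 UMIs per 10000 in the isotype tumors and 80.0 to 119 in the B20-4.1.1 tumors, without overlap, and their part in the results was not tested.

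In epithelial-like cells the RNA of this set was carried mainly by a few fatty acid genes and 1 regulator. Levels here are UMIs of the gene per 10000 UMIs of the class in a tumor; 1 UMI stands for 1 captured 3′ end, so levels are not divided by gene length, and differences between genes also carry differences in capture. Thrsp, which encodes the lipogenic protein Spot 14, had a mean level of 3.67 ± 2.58 (SD, n = 15 tumors) and held 19.0% of the UMIs of the 34 genes. Scd1, a desaturase that puts the first double bond into saturated fatty acids, followed with 2.74 ± 0.972 and 14.2%. Srebf1, the SREBP gene most tied to fatty acid synthesis, had 2.44 ± 0.625 and 12.7%. Next came Scd2, a second desaturase, at 1.90, Me1, the malic enzyme that yields NADPH, at 1.24, and Ebp, a sterol isomerase, at 0.965. The spreads of Thrsp, Scd1 and Srebf1 over tumors overlapped, and their order within each tumor was not tested.

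The remaining 28 genes had mean levels between 0.0610 and 0.646. In the fatty acid arm these were Acly (0.646), which makes cytosolic acetyl-CoA from citrate, the elongase Elovl1 (0.60), the fatty acid synthase Fasn (0.425), the acetyl-CoA carboxylase Acaca (0.309), the desaturase Fads1 (0.285), the elongases Elovl6 (0.262) and Elovl5 (0.148), the acetyl-CoA synthetase Acss2 (0.115) and the desaturase Fads2 (0.0878). In the sterol arm phosphomevalonate kinase, Pmvk (0.556), and the isomerase Idi1 (0.346) were highest after Ebp, and Hmgcs1 (0.236), which forms HMG-CoA, lay in the middle. The other sterol enzymes ran from Sc5d (0.236), a desaturase of the last steps, Dhcr7 (0.221) and the squalene epoxidase Sqle (0.198) through the lanosterol demethylase Cyp51 (0.171), Nsdhl (0.143), Msmo1 (0.142), the farnesyl diphosphate synthase Fdps (0.139) and the squalene synthase Fdft1 (0.135) to Hsd17b7 (0.0786), the lanosterol synthase Lss (0.0761), the mevalonate kinase Mvk (0.0706) and the decarboxylase Mvd (0.0651). Stard4, a sterol carrier, was the lowest of all at 0.0610. Genes also differed in how much they varied among tumors. Thrsp had a coefficient of variation of 70.4% over the 15 tumors, Scd1 of 35.4% and Me1 of 6.38%, and 1 tumor of B20-4.1.1 pool 3 stood far above the rest for Thrsp and Scd1.

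**Figure D1:**
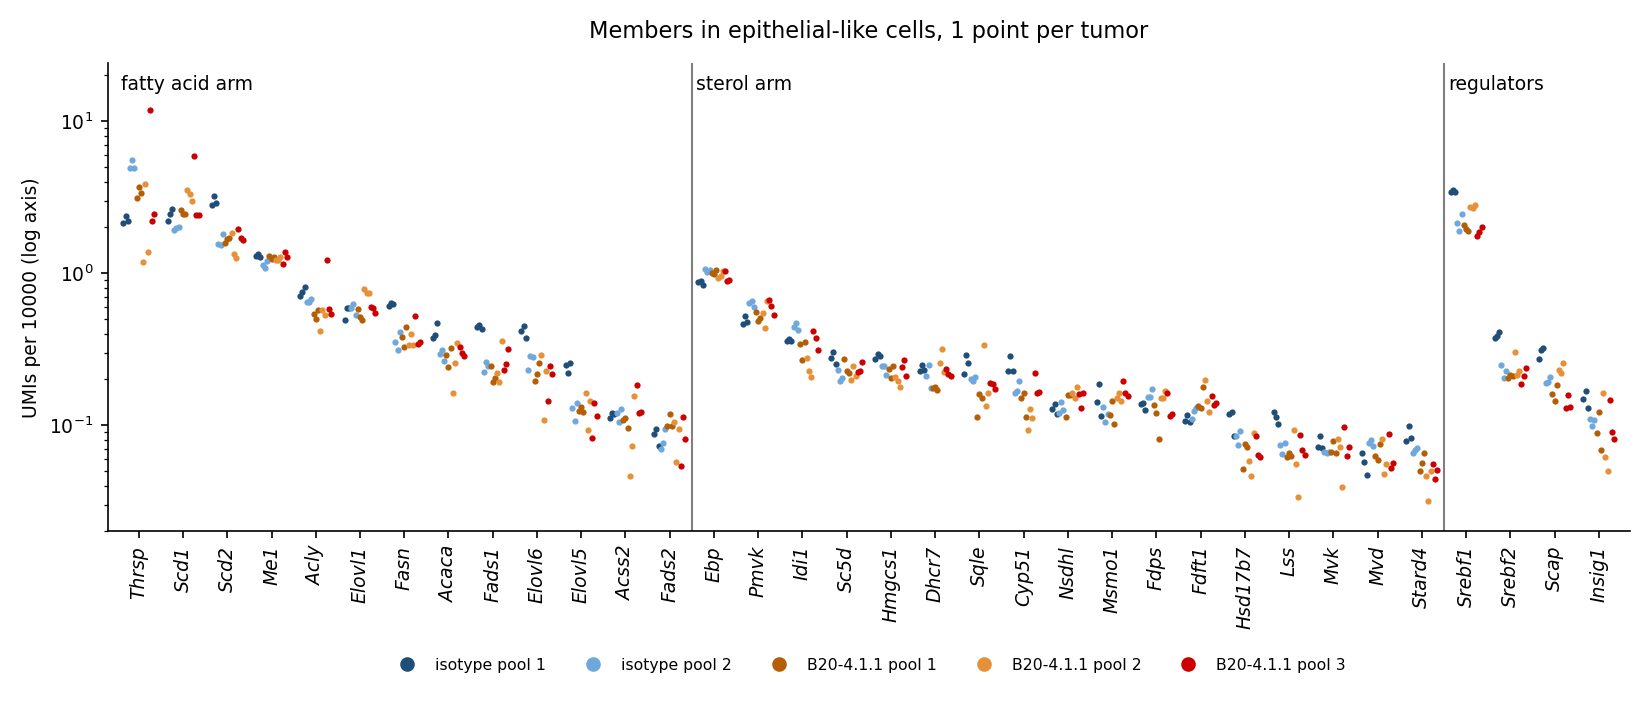
Level of each of the 34 genes in epithelial-like cells, in UMIs per 10000 on a log axis, with 1 point per tumor colored by pool and the genes ordered by mean level within each arm. Thrsp reaches 11.7 in 1 tumor of B20-4.1.1 pool 3, and the points of isotype pool 1 lie apart from those of isotype pool 2 for genes such as Scd2, Fads1 and Srebf2.

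The promoters of a few of these genes are shown because the CCAAT box, bound by NF-Y, and the sterol regulatory element, bound by SREBPs, are the motifs by which this pathway is known. RefSeq promoter windows on GRCm38.p6, from 250 bases before to 50 bases after a start, matched 27 of the 34 genes with 35 windows. CCAAT, searched on both strands, stood in 24 of the 35 windows (68.6%) and in 37.4% of all 32851 promoter windows. The E-box CANNTG stood in 28 of 35 (80%) against 72.3%, and the sterol regulatory element TCACNCCAC in 1 of 35, that of Hmgcs1, against 1.24%. A match is a description of letters and not of binding. The search took exact letters, so a window without a match can still hold a variant of the element. The sequences below run 5′ to 3′ over the 250 bases before the RefSeq start, with matches to CCAAT or its reverse complement and to TCACNCCAC in capitals. Hmgcs1 holds 3 CCAAT matches and the sterol regulatory element, which begins 137 bases before the start. Fasn holds 3, of which a pair overlaps, the lipogenic Thrsp 2, the regulator Srebf2 1, and Elovl6, which appears again in the treatment comparison, none.
Hmgcs1, chr13:119690101-119690350, plus strand: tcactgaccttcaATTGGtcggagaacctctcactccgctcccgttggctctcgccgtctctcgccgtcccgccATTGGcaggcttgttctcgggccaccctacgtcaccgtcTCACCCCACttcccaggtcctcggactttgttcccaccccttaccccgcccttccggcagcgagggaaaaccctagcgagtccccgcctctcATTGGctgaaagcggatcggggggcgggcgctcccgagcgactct
Fasn, chr11:120824548-120824797, minus strand: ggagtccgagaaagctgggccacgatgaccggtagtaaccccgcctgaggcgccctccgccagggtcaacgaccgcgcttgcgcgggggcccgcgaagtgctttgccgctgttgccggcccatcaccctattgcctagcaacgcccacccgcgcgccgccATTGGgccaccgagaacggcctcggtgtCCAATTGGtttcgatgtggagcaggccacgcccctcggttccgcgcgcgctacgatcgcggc
Thrsp, chr7:97417551-97417800, minus strand: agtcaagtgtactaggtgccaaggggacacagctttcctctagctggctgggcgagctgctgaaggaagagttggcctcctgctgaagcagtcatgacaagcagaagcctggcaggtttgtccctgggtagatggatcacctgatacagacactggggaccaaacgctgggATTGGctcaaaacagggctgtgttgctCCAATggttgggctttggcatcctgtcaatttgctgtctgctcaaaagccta
Srebf2, chr15:82147019-82147268, plus strand: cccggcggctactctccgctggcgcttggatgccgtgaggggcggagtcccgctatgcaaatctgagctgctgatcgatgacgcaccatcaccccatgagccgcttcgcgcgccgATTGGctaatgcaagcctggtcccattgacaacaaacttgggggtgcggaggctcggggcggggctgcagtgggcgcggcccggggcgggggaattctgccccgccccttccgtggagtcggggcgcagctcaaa
Elovl6, chr3:129532136-129532385, plus strand: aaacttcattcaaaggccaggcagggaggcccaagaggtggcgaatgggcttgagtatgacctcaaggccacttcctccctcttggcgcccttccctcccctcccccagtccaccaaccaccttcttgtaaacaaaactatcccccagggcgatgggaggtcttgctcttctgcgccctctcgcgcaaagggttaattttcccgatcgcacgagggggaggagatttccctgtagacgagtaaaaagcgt

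Most of the 34 genes were higher in epithelial-like cells than in macrophage-like or T-like cells of the same tumors. The margins were widest in the fatty acid arm. Against macrophage-like cells, 29 of the 34 genes passed the threshold (edgeR quasi-likelihood F test with a tumor block, adjusted p below 0.05 over 11331 genes), 22 higher and 7 lower in epithelial-like cells. Of all genes tested, 78.5% passed, 43.6% higher and 34.9% lower. Against T-like cells 26 passed, 21 higher and 5 lower, where 77.1% of all genes passed, 42.4% higher and 34.7% lower. DESeq2 called 29 and 28 of the 34 genes, where it called 77.8% and 76.9% of all genes. The median log2 difference of the fatty acid arm was 1.95 against macrophage-like and 1.31 against T-like cells. It was 0.47 and 0.18 in the sterol arm, 0.32 and 0.22 in the regulators, and 0.13 and 0.10 over all genes tested.

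Scd1, Thrsp and Me1 differed most of the 34 genes against macrophage-like cells. Scd1 was higher in epithelial-like cells by 5.47 ± 0.13 (log2, SE) against macrophage-like and 5.29 ± 0.21 against T-like cells. Thrsp was higher by 5.10 ± 0.19 and 4.79 ± 0.23, and Me1 by 5.04 ± 0.18 and 5.83 ± 0.22. The level of these genes in macrophage-like and T-like cells was near that of milk protein genes, which immune cells should not make. Per tumor, macrophage-like cells held a median of 1.97% of the epithelial-like level of Scd1, 3.07% for Thrsp and 1.88% for Me1, and 1.86% (range 0.970% to 6.24%) for the summed milk protein genes. T-like cells held 2.71%, 3.05% and 1.82% for the 3 genes and 2.27% (1.37% to 5.44%) for milk protein genes. Values at or near the milk protein level are read as background of free RNA, so these RNAs cannot be told from background in those classes. Fads2, the desaturase that opens polyunsaturated fatty acid synthesis, had 1 UMI in 2661 T-like cells, a level of 0.000785 with an exact Poisson interval of 2.0e-05 to 0.00437, and 10 UMIs in 1447 macrophage-like cells, against 0.0850 (0.0802 to 0.0901) in epithelial-like cells; these intervals cover counting error only.

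Among the epithelial-like, macrophage-like and T-like classes, shares of cells with at least 1 UMI of Scd1 or Thrsp were also highest in epithelial-like cells. B-like cells, described at the end, were not part of this comparison. In the tumors with at least 20 B-like cells, 53.3% to 68.5% of those cells held an Scd1 UMI, unthinned. After every cell was thinned to 2500 UMIs, Scd1 was seen in 32.3% of epithelial-like cells, and in the macrophage-like and T-like classes in 1.24% and 2.07% (57.4%, 3.73% and 2.97% unthinned). Thrsp was seen in 32.8%, 2.83% and 3.38% (53.0%, 6.36% and 5.52% unthinned). Median depth was 8796 UMIs per epithelial-like, 6386 per macrophage-like and 4109 per T-like cell.

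Other fatty acid genes had sizeable levels in immune cells. Fasn in macrophage-like cells stood at a median of 21.4% of the epithelial-like level, and in T-like cells at 52.5%. Elovl5, which elongates polyunsaturated chains, was lower in epithelial-like cells by 0.42 on the log2 scale against macrophage-like and by 1.51 against T-like cells, and its T-like level exceeded the epithelial-like level in 15 of 15 tumors. Fads1, which makes arachidonate, went opposite ways. It was lower than in macrophage-like cells, with a log2 difference of -0.77 ± 0.12, and higher than in T-like cells by 2.39 ± 0.21. Elovl1 did not pass against macrophage-like cells (-0.10 ± 0.08) and was higher than in T-like cells by 1.31 ± 0.14.

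In the sterol arm the classes were closer. Summed over the 17 genes, macrophage-like cells stood at a median of 83.9% of the epithelial-like level of the same tumor and T-like cells at 74.9%, against 25.6% and 19.4% in the fatty acid arm. The epithelial-like fatty acid sum rested most on Thrsp, Scd1, Scd2 and Me1. Pooled over tumors, these were at 4.29, 2.66, 1.99 and 1.23 of 13.1 UMIs per 10000. Pmvk, phosphomevalonate kinase, was higher in epithelial-like cells by 0.61 ± 0.09 against macrophage-like and 2.06 ± 0.10 against T-like cells. Sqle, the squalene epoxidase, was higher by 1.11 ± 0.18 and 2.04 ± 0.26. Lower on the epithelial side than in macrophage-like cells were Hmgcs1 (-0.57), the lanosterol demethylase Cyp51 (-0.68), the sterol methyl oxidase Msmo1 (-0.93) and Stard4 (-0.71). Against T-like cells, Lss, the lanosterol synthase (-0.69), Cyp51 (-0.59) and Stard4 (-1.82) were lower. The epithelial-like difference of Lss therefore had opposite signs against the 2 immune classes, since it was higher than in macrophage-like cells by 1.40 ± 0.27.

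The regulators divided as well. Srebf1 was higher in epithelial-like cells by 3.30 ± 0.09 against macrophage-like and 2.88 ± 0.11 against T-like cells. Its levels in those classes were 9.82% and 14.4% of the epithelial-like level, above the milk protein share. Scap, the SREBP escort, was higher by 0.50 ± 0.14 and 0.68 ± 0.15. Srebf2, the SREBP gene most tied to sterol synthesis, was not separated from macrophage-like cells (0.14 ± 0.10) and was lower than in T-like cells (-0.46 ± 0.12). Insig1, which holds SREBPs back, was higher in macrophage-like cells, with a log2 difference of -1.31 ± 0.13 as epithelial-like minus macrophage-like, and above the epithelial-like level in 14 of 14 tumors. Thinning all cells to 2500 UMIs left 27 genes tested against macrophage-like cells, of which 19 passed, where 72.6% of all genes passed.

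**Figure D2:**
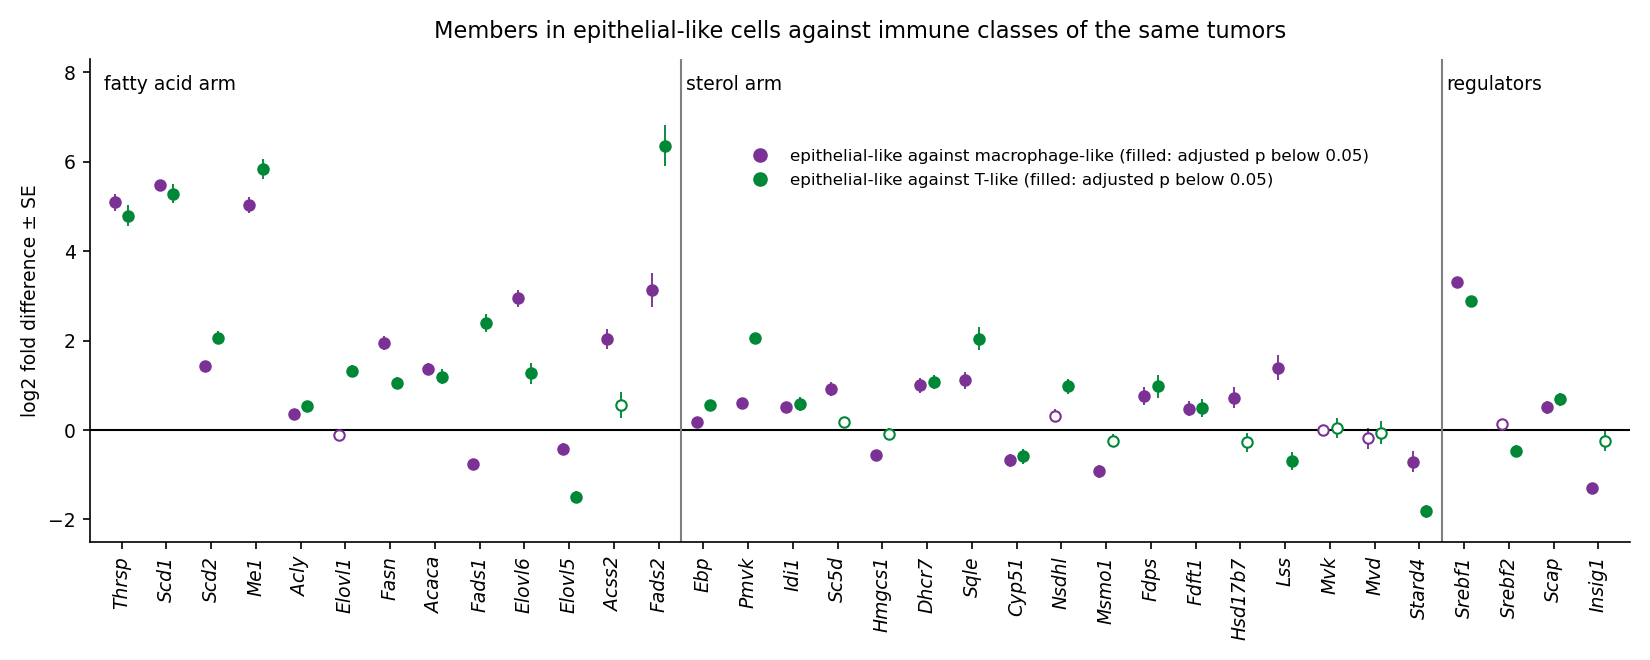
Log2 difference of each gene between epithelial-like cells and macrophage-like or T-like cells of the same tumors, with SE bars, from edgeR with a tumor block; filled points have an adjusted p below 0.05. Thrsp, Scd1 and Me1 lie near 5 on the log2 scale against both classes, most sterol genes lie within 1 of 0, the T-like value of Fads2 rests on 1 UMI, and the short bar of Mvk against macrophage-like cells is not informative, since the SE is computed from the fold difference, which was 0.00 there.

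Between treatments, 7 of the 34 genes (20.6%) passed the threshold in epithelial-like cells with tumors taken as independent, where 14.2% of all genes passed (edgeR quasi-likelihood F test, 6 isotype against 9 B20-4.1.1 tumors). Their differences went both ways in the synthesis arms and down in the regulators. With the pool as a random block (limma-voom, estimated within-pool correlation 0.535), 0 of the 34 genes passed, and the 7 genes had an adjusted p = 0.129 to 0.425. With tumors taken as independent samples, Scd1 and Fdft1 rose, and Elovl5, Elovl6, Stard4, Srebf2 and Scap fell. Over all 12326 genes tested, 14.2% passed, 7.32% higher and 6.93% lower in B20-4.1.1 tumors. At an unadjusted p below 0.05 stood 16 of the 34 genes, 4 higher and 12 lower, and 31.1% of all genes. The median log2 fold change was -0.10 over the 34 genes, -0.09 in the fatty acid arm, -0.00 in the sterol arm, -0.35 in the regulators and -0.01 over all genes. No gene of the 34 had groups that did not overlap, in either direction, where 1.28% of all genes were lower and 1.52% higher without overlap.

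Under the pool block, 8 of the 34 genes had an unadjusted p below 0.05, and 37 of all genes (0.3%) passed. DESeq2 called 9 of the 34 genes, adding a fall of Scd2 and a rise of Me1, where it called 17.3% of all genes. All 7 edgeR calls were lost without isotype pool 1, where the log2 fold changes were 0.63 for Scd1, 0.24 for Fdft1, -0.11 for Elovl5, -0.42 for Elovl6, -0.46 for Stard4, -0.10 for Srebf2 and -0.24 for Scap.

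Scd1 on chromosome 19 (44394455 to 44407879, minus strand, GRCm38) was measured in isotype tumors at 1.93, 2.11 and 2.62 UMIs per 10000 (lowest, median and highest; mean 2.20 ± 0.284 SD, n = 6). In B20-4.1.1 tumors it was at 2.39, 2.59 and 5.85 (3.10 ± 1.11, n = 9). The groups overlapped, but each of the 9 B20-4.1.1 values exceeded the isotype mean and 4 exceeded every isotype value. The log2 fold change was 0.59 ± 0.19 (edgeR adjusted p = 0.0412; adjusted p = 0.425 with the pool as a block). Without the highest tumor, tumor 1 of B20-4.1.1 pool 3, it was 0.39 ± 0.09 (edgeR adjusted p = 0.0138). The Scd1 call was lost without isotype pool 2 (0.56, edgeR adjusted p = 0.0917) and without B20-4.1.1 pool 2 (0.59, edgeR adjusted p = 0.103).

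The elongases Elovl6 and Elovl5 were lower in B20-4.1.1 tumors with tumors taken as independent. Elovl6, which carries palmitate to stearate (chromosome 3, 129532355 to 129638495), was at 0.230, 0.330 and 0.446 in isotype tumors (0.339 ± 0.0867) and at 0.108, 0.217 and 0.290 in B20-4.1.1 tumors (0.211 ± 0.0563). Of the 9 B20-4.1.1 tumors, 6 lay below every isotype tumor and all lay below the isotype mean, and the log2 fold change was -0.64 ± 0.16 (edgeR adjusted p = 0.0148; 0.129 with the pool as a block). Elovl5 (chromosome 9, 77917364 to 77984519) was at 0.107, 0.180 and 0.255 (0.183 ± 0.0652) against 0.0826, 0.123 and 0.162 (0.124 ± 0.0251). Here the B20-4.1.1 tumors lay mostly inside the isotype range, with 2 below it, and the log2 fold change was -0.51 ± 0.16 (edgeR adjusted p = 0.045; 0.194 with the pool as a block). The Elovl5 call was lost without any 1 of the B20-4.1.1 pools (-0.54 without pool 1, -0.49 without pool 2 and -0.46 without pool 3) and without tumor 1 of pool 3 (-0.45). The Elovl6 call held without each B20-4.1.1 pool and after thinning, and was lost without isotype pool 1 (-0.42).

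Thrsp (chromosome 7, 97412938 to 97417730, minus strand) had the highest level and the widest spread. Isotype tumors were at 2.14, 3.66 and 5.55 (3.69 ± 1.61) and B20-4.1.1 tumors at 1.18, 3.14 and 11.7 (3.66 ± 3.17), so that both extremes lay in the treated group. The log2 fold change was 0.06 ± 0.43 (edgeR adjusted p = 0.946). For Acly, 8 of 9 B20-4.1.1 tumors lay below every isotype tumor and 1, tumor 1 of B20-4.1.1 pool 3, lay above all of them at 1.22. Acly had a log2 fold change of -0.09 ± 0.19 over all tumors and did not pass. Without that tumor, left out after its value was seen, the log2 fold change was -0.32 ± 0.07. A fit chosen in this way cannot test a fall of Acly. The other 8 genes of the arm did not pass, with log2 fold changes from -0.38 for Scd2 and Fads1 to 0.19 for Fads2.

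In the sterol arm, Fdft1, the squalene synthase that commits isoprenoids to sterols (chromosome 14, 63145150 to 63179578, minus strand), was higher in B20-4.1.1 tumors with tumors taken as independent. It was at 0.105, 0.113 and 0.129 in isotype tumors (0.115 ± 0.00969) and at 0.123, 0.140 and 0.197 in B20-4.1.1 tumors (0.148 ± 0.0242). All but 1 of the B20-4.1.1 tumors lay above every isotype tumor, and the log2 fold change was 0.41 ± 0.11 (edgeR adjusted p = 0.0223; 0.280 with the pool as a block), and the call was lost without B20-4.1.1 pool 3 (0.39, edgeR adjusted p = 0.0772). Stard4 was lower, going from 0.0651, 0.0746 and 0.0989 (0.0773 ± 0.0124) to 0.0318, 0.0503 and 0.0659 (0.0502 ± 0.00942), with 8 of 9 B20-4.1.1 tumors below every isotype tumor. Stard4 had only 882 UMIs in 13647 epithelial-like cells, and B20-4.1.1 tumors held as few as 77 of those cells. Its log2 fold change was -0.52 ± 0.13 (edgeR adjusted p = 0.0169; 0.182 with the pool as a block), and after thinning it was -0.31 (edgeR adjusted p = 0.487).

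The most abundant sterol genes did not pass. Ebp was at 0.832, 0.949 and 1.07 in isotype tumors (0.953 ± 0.102) and 0.882, 0.982 and 1.05 in B20-4.1.1 tumors (0.973 ± 0.0624), a log2 fold change of 0.10 ± 0.10. Pmvk was at 0.463, 0.562 and 0.653 (0.559 ± 0.0827) against 0.434, 0.544 and 0.666 (0.554 ± 0.0768), a log2 fold change of 0.05 ± 0.13. The ranges of both genes nearly coincided between the groups. The other 13 sterol genes had log2 fold changes from -0.43 for the ketoreductase Hsd17b7 to 0.31 for the dehydrogenase Nsdhl, and both of these missed the threshold narrowly (edgeR adjusted p = 0.0594 and 0.0618).

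The regulators had the lowest median, and Srebf2 and Scap passed. Srebf2 (chromosome 15, 82147181 to 82205379) was at 0.205, 0.312 and 0.409 in isotype tumors (0.309 ± 0.0917) and 0.185, 0.213 and 0.301 in B20-4.1.1 tumors (0.223 ± 0.0327). All 9 B20-4.1.1 tumors lay below the isotype mean but only 2 below every isotype tumor, and the log2 fold change was -0.40 ± 0.12 (edgeR adjusted p = 0.0291; 0.174 with the pool as a block). Scap (chromosome 9, 110333288 to 110384950) was at 0.190, 0.239 and 0.322 (0.249 ± 0.0607) against 0.130, 0.160 and 0.256 (0.179 ± 0.0463), and 6 B20-4.1.1 tumors lay below every isotype tumor. Its log2 fold change was -0.45 ± 0.14 (edgeR adjusted p = 0.0409; 0.132 with the pool as a block). Srebf2 lost its call without B20-4.1.1 pool 1 (-0.36), pool 2 (-0.42) or pool 3 (-0.40). Scap lost its call without B20-4.1.1 pool 1 (-0.38), pool 3 (-0.31) or tumor 1 of pool 3 (-0.41).

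Srebf1 and Insig1 did not pass. Srebf1 (chromosome 11, 60199089 to 60222581, minus strand) was at 1.90, 2.94 and 3.54 in isotype tumors (2.81 ± 0.735) and 1.75, 2.02 and 2.78 in B20-4.1.1 tumors (2.19 ± 0.414), with a log2 fold change of -0.27 ± 0.12 (edgeR adjusted p = 0.144). Insig1 was at 0.0979, 0.120 and 0.168 (0.127 ± 0.0270) against 0.0501, 0.0892 and 0.162 (0.0969 ± 0.0385), with a log2 fold change of -0.30 ± 0.19. In both genes the highest B20-4.1.1 tumors lay inside the isotype range.

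**Figure D3:**
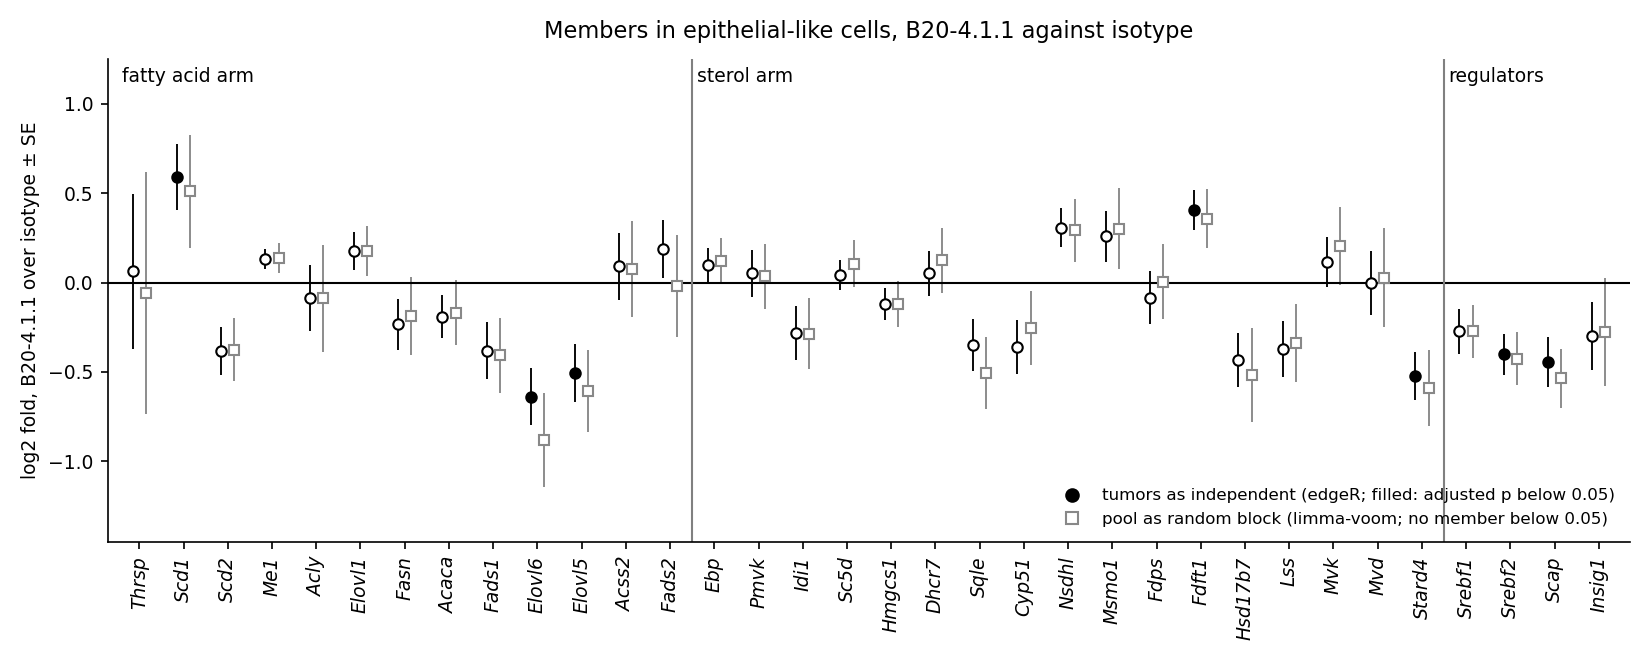
Log2 fold change of each gene between B20-4.1.1 and isotype tumors in epithelial-like cells, with SE bars; circles take tumors as independent (edgeR, filled where the adjusted p is below 0.05) and squares take the pool as a random block (limma-voom). The 7 filled circles are Scd1 and Fdft1 above 0 and Elovl5, Elovl6, Stard4, Srebf2 and Scap below 0, and none of the squares passes.

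Much of the spread lay between pools of the same treatment, above all between the isotype pools. With 3 tumors against 3, 20 of the 34 genes differed between isotype pools 1 and 2 (edgeR), 10 higher and 10 lower in pool 2, where 56.4% of all genes differed. Higher in pool 2 were Thrsp (log2 1.47 ± 0.06), the mevalonate pathway genes Mvd (0.70), Pmvk (0.64), Idi1 (0.57) and Fdps (0.52), and Ebp, Fdft1, Elovl1, Acss2 and Nsdhl. Lower in pool 2 were Elovl5 (-0.64), Fads1 (-0.60), Scd2 (-0.58), Fasn (-0.51), Srebf2 (-0.51), Srebf1 (-0.41), Elovl6, Lss, Scap and Acaca. Of the genes called between treatments, Elovl5, Elovl6, Fdft1, Srebf2 and Scap were also called between isotype pools, while Scd1 (-0.03 ± 0.06) and Stard4 (-0.08 ± 0.13) were not.

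The B20-4.1.1 pools were set against each isotype pool apart, in tests that share the isotype tumors. Against isotype pool 1, 23 of the 34 genes passed in B20-4.1.1 pool 1 (51.8% of all genes), 22 in pool 2 (45.2%) and 14 in pool 3 (46.2%). Against isotype pool 2, 6 passed in B20-4.1.1 pool 1 (10.1% of all genes), 7 in pool 2 (16.1%) and 0 in pool 3 (3.15%). Scd1 was higher than in isotype pool 2 by 0.30 in B20-4.1.1 pool 1 and by 0.67 in pool 2, and Acly, Thrsp and Idi1 were lower in both. Mean Thrsp levels per pool were 2.24 and 5.14 in isotype pools 1 and 2 and 3.39, 2.13 and 5.45 in B20-4.1.1 pools 1, 2 and 3. Mean Scd1 levels were 2.43 and 1.97 for isotype, and for B20-4.1.1 they were 2.50, 3.26 and 3.55, so that the B20-4.1.1 pool means were above both isotype pool means. In pool 3 this rested on tumor 1 at 5.85, since its other tumors, at 2.40 and 2.39, lay below the mean of isotype pool 1. Stard4 had the same kind of separation downward, at 0.0866 and 0.0680 against 0.0576, 0.0427 and 0.0502. In these unscaled levels both Scd1 and Stard4 were lower in isotype pool 2 than in isotype pool 1, although edgeR called neither between those pools.

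Among the B20-4.1.1 pools, 4 genes differed between pools 1 and 2 (2.64% of all genes). Scd1, Elovl1, Srebf1 and Dhcr7, the last reductase of cholesterol synthesis, were higher in pool 2. No gene of the 34 differed between pools 1 and 3 (0.142% of all genes) or pools 2 and 3 (0.166%). Leaving out isotype pool 1 left 0 of the 34 treatment calls in edgeR, with 4 genes at an unadjusted p below 0.05, where 3.3% of all genes passed. Leaving out isotype pool 2 gave 16 calls, 5 higher and 11 lower, where 43% of all genes passed. Leaving out B20-4.1.1 pool 1, 2 or 3 gave 4, 5 and 5 calls, where 10.3%, 8.18% and 8.43% of all genes passed, and thinning all cells gave 3 calls, where 10.4% passed.

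**Figure D4:**
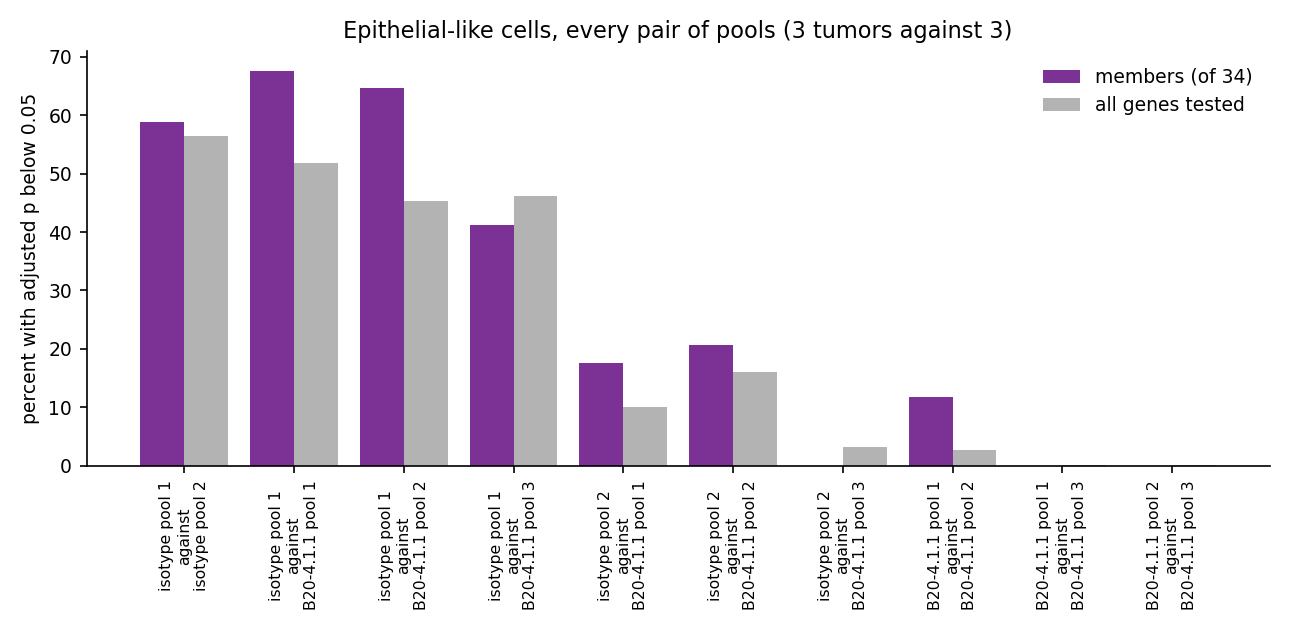
Percent of the 34 genes and of all genes tested with an edgeR adjusted p below 0.05 in epithelial-like cells, for each pair of pools with 3 tumors against 3. Bars are highest for the 4 pairs that include isotype pool 1, at 45.2% to 56.4% of all genes, and at or near 0 for most pairs of B20-4.1.1 pools.

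In macrophage-like cells, 15 of the 34 genes passed the filter on low counts in 6 isotype and 8 B20-4.1.1 tumors, and 0 passed the test by edgeR or DESeq2, with 2 lower at an unadjusted p below 0.05 in edgeR. Of all 6660 genes tested, 0.045% passed in edgeR (0.03% higher, 0.015% lower), 33 genes (0.495%) passed in DESeq2, and 10.3% had an unadjusted p below 0.05. Without isotype pool 2, Srebf1 (log2 -0.84, adjusted p = 0.0403) and Insig1 (-0.77, adjusted p = 0.0248) were lower among 22 genes tested, in a fit where 6.16% of all genes passed. Over all tumors Srebf1 was at 0.192, 0.245 and 0.510 UMIs per 10000 (lowest, median and highest) in isotype and 0.137, 0.228 and 0.274 in B20-4.1.1 tumors, so the groups overlapped. In T-like cells 13 genes passed the filter and 0 passed the test by edgeR or DESeq2, with 4 lower at an unadjusted p below 0.05 in each. T-like cells were 57.7% to 66.3% of kept cells in some B20-4.1.1 tumors and at most 11.5% in isotype tumors, and the part of this was not tested. Of all 5978 genes, 0% passed in edgeR, 47 genes (0.786%) passed in DESeq2, 0.0167% passed with the pool as a random block, and 16.8% had an unadjusted p below 0.05 in edgeR. The T-like median log2 fold change was -0.29 over the genes tested, against 0.01 over all genes.

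Summed levels of each arm overlapped between the treatments in all 3 classes. In epithelial-like cells the fatty acid arm was at 11.9, 12.7 and 13.1 UMIs per 10000 in isotype tumors (12.6 ± 0.428) and 9.82, 11.2 and 24.1 in B20-4.1.1 tumors (12.3 ± 4.46). There 7 of 9 B20-4.1.1 tumors lay below every isotype tumor and 1 stood far above. This count depended on Thrsp. Without Thrsp the arm was at 7.28, 8.78 and 10.7 in isotype tumors (8.90 ± 1.61). In B20-4.1.1 tumors it was then at 7.75, 8.17 and 12.3 (8.67 ± 1.42), and 0 of them lay below every isotype tumor. The sterol arm was at 4.00 ± 0.169 against 3.73 ± 0.241 and the regulators at 3.50 ± 0.906 against 2.69 ± 0.473. In T-like cells the fatty acid arm was at 3.11 ± 0.80 against 2.04 ± 0.415, and all 9 B20-4.1.1 tumors lay below the isotype mean. The isotype pools differed from each other there, at 3.64 to 3.97 in pool 1 and 2.19 to 2.50 in pool 2. They differed likewise in macrophage-like cells, at 3.73 to 4.09 against 2.51 to 2.92. Milk protein genes in T-like cells, a gauge of free epithelial RNA, were at 5.56 to 10.7 in isotype and 2.64 to 7.88 in B20-4.1.1 tumors, and their part in the T-like sums was not tested.

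**Figure D5:**
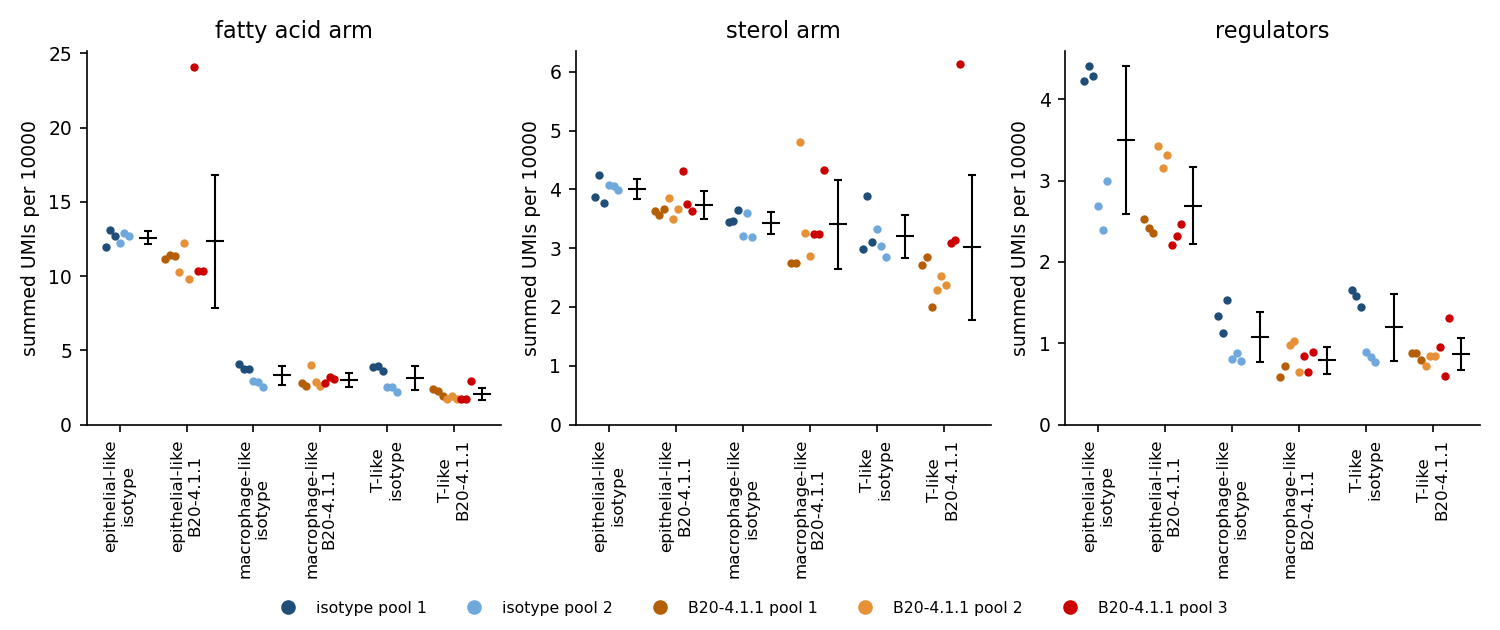
Summed level of each arm, in UMIs per 10000, in epithelial-like, macrophage-like and T-like cells, with 1 point per tumor colored by pool and the mean and SD of each group beside the points. The fatty acid arm lies near 12 in epithelial-like cells and between 1.70 and 4.09 in the immune classes, while the sterol arm spans 3.49 to 4.31 in epithelial-like, 2.75 to 4.81 in macrophage-like and 2.00 to 6.14 in T-like cells and exceeds the epithelial-like level of the same tumor in 2 of 14 and 1 of 15 tumors of the immune classes.

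The treatment effect was also compared between classes, as the per-tumor difference of log2 values (limma). Between epithelial-like and macrophage-like cells, 0 of 15 genes passed and 0 had an unadjusted p below 0.05, where 0% of 6357 genes passed and 8.2% had an unadjusted p below 0.05. Between epithelial-like and T-like cells, 0 of 13 passed and 1, Elovl1, had an unadjusted p below 0.05 (difference 0.79, limma adjusted p = 0.323), where 0% of 5736 genes passed and 11.2% had an unadjusted p below 0.05. An effect of treatment on these genes that differs between classes was not detectable with these tumors. With the pool as a random block, 0 genes passed in either difference.

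Genes beside the 34 in the same pathways were compared between treatments in epithelial-like cells (edgeR), where 14.2% of all genes passed, 7.32% higher and 6.93% lower. None of the listed genes named here passed with the pool as a random block (adjusted p = 0.098 to 0.606). Of 22 further fatty acid synthesis genes tested, 2 were higher and 1 lower. These were Fads3, a desaturase relative of Fads1 (0.66, adjusted p = 0.00447), Mlx, a partner of the glucose-sensing factor ChREBP (0.26), and Acsl1, an acyl-CoA synthetase (-0.36). Of 11 further sterol genes, Insig2 was higher (0.26), and Mbtps2, a protease that cuts SREBPs (-0.36), and Pdss2, of ubiquinone synthesis (-0.48), were lower. Of 12 genes of sterol uptake, storage and efflux, 4 were higher and 0 lower. They were Abcg1, a sterol exporter (0.68), Stard3, a late endosomal sterol carrier (0.51, adjusted p = 0.00557), Nr1h2, which encodes LXR beta (0.37), and Osbpl3, an oxysterol-binding protein relative (0.33). The median log2 fold change of that list was 0.11.

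Of 18 glycerolipid and milk fat genes, Dgat1 (0.40) and Agpat2 (0.23), which build triglyceride, were higher and Btn1a1, the butyrophilin of the milk fat globule, was lower (-0.93). Of 7 milk protein genes, 3 were lower, which were Csn1s2a (-3.11), Csn1s1 (-2.26) and Lalba (-0.60). Of 12 cell cycle genes, Mki67 was lower (-1.02) and the list summed to 1.70 ± 0.288 in isotype and 1.04 ± 0.380 in B20-4.1.1 tumors. Of the 3 hypoxia score genes, Vegfa (0.75, adjusted p = 0.00102) and Slc2a1 (0.39) were higher. The part of cell cycle or hypoxia genes in the values of the 34 genes was not tested. In macrophage-like and T-like cells no gene of these lists passed in edgeR.

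Adipocytes, the other lipogenic cells of the mammary gland, left little trace in epithelial-like cells. The 8 adipocyte markers summed to 0.0951 to 0.109 UMIs per 10000 in isotype and 0.0689 to 0.116 in B20-4.1.1 tumors, nearly all of it Lipe, a lipase gene that other tissues also express. Adipoq, Cidec and Lep were at 0 in all 15 tumors. T markers in epithelial-like cells were at 0.0765 to 0.145 in isotype and 0.0996 to 0.356 in B20-4.1.1 tumors, and their part in the treatment values was not tested.

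Thrsp was spread unevenly over cells. The 10% of epithelial-like cells with the most Thrsp held 68.6% ± 12.6 (SD, n = 15 tumors) of its thinned UMIs, and cells with at least 5 thinned UMIs made up 0% to 20.4% of a tumor, the highest share being that of tumor 1 of B20-4.1.1 pool 3.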

How the data were processed

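Single-cell RNA libraries (10x Chromium 3′ v3.1 with CellPlex tags) were made from 5 pools of 3 tumors each, and each tumor carried 4 tag oligonucleotides. The authors deposited raw UMI counts per gene and cell for each tumor, made with Cell Ranger 6.1.2 as the file headers state, and the submitters' processing notes also name bcl2fastq, Seurat 4.3.0 and mm10. Reads that fit several genes are not kept by such counting by default, which can lower counts of similar copies such as Scd1 and Scd2. Depth was 4014509 to 23726246 UMIs per tumor, and intervals cover counting error only.

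The UMI limits followed the study, with a lower limit of 2500, and cells above 20% mitochondrial UMIs were dropped, using Python 3.11.15 and scanpy 1.11.5. No doublet caller was run. A class needed 4 of its 8 markers (3 of 6 for dendritic cells) and no other class at that level, else the cell was left out as mixed; the markers were listed at the start and this scoring rule was set after the files were seen. Counts were summed per tumor and class, for tumors with at least 20 cells. B20-4.1.1 was compared with isotype by edgeR 4.0.16 (TMM, filterByExpr, quasi-likelihood F test, two-sided), with Benjamini-Hochberg adjustment over all genes tested and a threshold of 0.05. The SE of an edgeR fold change is its size over the square root of F. Classes were compared in the same way with a tumor block, and differences of the treatment effect with limma 3.58.1 on per-tumor differences of log2 CPM (prior count 2). Alternatives were DESeq2 1.42.0, no low-count filter, the pool as a random block (limma-voom), sums per pool, thinning to 2500 UMIs, at least 1000 UMIs, a 10% mitochondrial limit, a stricter gate, cluster classes (leidenalg 0.10.2) and each pool left out. Single tumors were left out as an alternative chosen after seeing the data. The scripts were tested on simulated data. Of genes changed by 1 on the log2 scale, 99% were recovered in epithelial-like cells (12182 genes), with 4.35% false calls. In macrophage-like cells 84% were recovered (6444 genes), and in T-like cells 80% (5760 genes). When the epithelial-like fit blocked on pool, 93% were recovered, with 10.2% false calls. For the difference of treatment effects, 62% were recovered against either immune class. Only changes of 1 and 2 were simulated, so recovery of smaller changes, such as those of the 7 called genes, was not tested. These shares also do not show how differences between pools would alter them.

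The 34 genes, their arms and the further gene lists were chosen with earlier results of these data known. Values are given in full for genes past the threshold in a treatment comparison, for the pair of each arm with the highest epithelial-like level, and for the 4 regulators. Beyond that rule Acly was described for 1 tumor, chosen after its values were seen. Listed genes outside the 34 are named where past the threshold, up to 5 per list. Gene positions are from the GENCODE M21 annotation on GRCm38, and promoter sequences are from RefSeq on GRCm38.p6.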

Additional observations from a re-analysis of the deposited data

Results flagged for a closer look

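Values of single tumors were set against the others of their group, for the arm sums and for the genes described in full. Of 42 groups of tumors, 8 had a highest tumor whose gap to the next exceeded Dixon's critical value. Chance gives about 1 in 20 for unrelated groups. These groups share tumors, and the fatty acid sum contains Scd1 and Thrsp, so the count cannot be set against that share. In epithelial-like cells tumor 1 of B20-4.1.1 pool 3 stood alone for the fatty acid sum (24.1 UMIs per 10000, others 9.82 to 12.2), the sterol sum (4.31, others 3.49 to 3.86), Scd1 (5.85, others 2.39 to 3.52) and Thrsp (11.7, others 1.18 to 3.84). Those values come from 1016 epithelial-like cells.

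In T-like cells tumor 3 of B20-4.1.1 pool 3 stood alone for the sterol sum (6.14, others 2.00 to 3.14) and the regulator sum (1.31, others 0.602 to 0.956), on 48 cells. In tumor 1 of B20-4.1.1 pool 2 the fatty acid sum of macrophage-like cells was 3.99 (others 2.58 to 3.20) and epithelial-like Srebf2 was 0.301 (others 0.185 to 0.236), on 20 and 77 cells.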

How the results depend on the processing

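No paired analysis was possible because every pool and tumor received 1 treatment, so that equal pool numbers in the groups are only names. In epithelial-like cells the 7 treatment calls became 0 with the pool as a random block (8 genes at an unadjusted p below 0.05), 0 with counts summed per pool (7 genes unadjusted, 0 of all genes called), 3 with every cell thinned to 2500 UMIs (Scd2 and Elovl6 lower, Fdft1 higher; 10.4% of all genes called), and 0 to 16 when 1 pool was left out. Without isotype pool 1 the count was 0 (3.3% of all genes), without isotype pool 2 it was 16 (43%) and without B20-4.1.1 pool 1 it was 4 (10.3%). The remaining alternatives, added ones included, gave 5 to 10 calls, with 6.51% to 17.3% of all genes called. Macrophage-like treatment calls were 0 to 2 when 1 pool was left out (2 of 22 without isotype pool 2, with 6.16% of all genes called), and T-like calls were 0 under every alternative run. Of the calls against macrophage-like cells, 19 of 27 genes tested passed after thinning (72.6% of all genes), with fewer genes past the filter, and 24 to 29 when 1 pool was left out. Over the alternatives of the 7 genes called between treatments, 63 of 105 values kept the call, 42 kept the direction and lost it, and 0 reversed. Without tumor 1 of B20-4.1.1 pool 3, Scd1 moved from 0.59 to 0.39 on the log2 scale. The cause of these changes was not tested. Tumors held 17 to 234 macrophage-like and 26 to 658 T-like cells, and in sums per tumor (at least 20 cells) 15 and 13 of the 34 genes passed the filter on low counts, and in sums per pool 27 and 32 did, so the counts per tumor limit what was tested there.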

Other observations

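Among the small classes, B-like cells held Scd1 at a level near that of epithelial-like cells. Only 3 tumors, all given B20-4.1.1, had at least 20 B-like cells, so treatments could not be compared. In these tumors T-like cells were 57.7% to 66.3% of kept cells. Scd1 was at 3.78 UMIs per 10000 (exact Poisson 95% interval 3.13 to 4.53, 89 cells) in tumor 3 of pool 1, at 3.71 (2.66 to 5.04, 30 cells) in tumor 1 of pool 2 and at 3.13 (2.40 to 4.00, 52 cells) in tumor 3 of pool 2. T-like cells of the same tumors were at 0.0975, 0.0953 and 0.0391. At least 1 Scd1 UMI was seen in 68.5%, 53.3% and 65.4% of the B-like cells and in 3.65%, 3.83% and 1.74% of the T-like cells, with a median depth of 3228, 3472.5 and 3392 UMIs against 3438, 3826 and 3980. Fads2 had 0 UMIs in the 179 B-like cells of all tumors.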
